A study of Bos taurus with 48 samples.

Results

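Heat shock proteins and molecular chaperones were followed in cattle muscle through 10 genes: HSPA1A, HSPA8, HSPA5, HSPB1, HSPB6, CRYAB, HSP90AA1, HSP90AB1, HSPD1 and HSPH1. A probe was taken for a gene when the gene name, or the symbol in the probe's description, in the array files was that gene's symbol. This gave 10 probes for 9 of the 10 genes, out of 21475 probes on the array. Of these, 9 probes, 1 per gene, were bright enough to be tested among 15822 tested probes. HSP90AA1 had no probe under its current symbol. A further 2 probes carry older names but accessions that RefSeq now lists under these genes, and they are described beside the others: HSPCA, the older name of HSP90AA1, and HSPA1B, which the table places under HSPA1A.

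Chaperones bind proteins that are not folded and either hold them or help them to fold. HSP70 proteins take up short exposed stretches of a chain together with J-domain partners and nucleotide exchange factors, HSP90 acts later on selected client proteins, and the small heat shock proteins hold unfolded chains without using ATP. In skeletal muscle, CRYAB, HSPB1 and HSPB6 are abundant and associate with the desmin and actin cytoskeleton of the sarcomere, and HSPA1A is the classical gene induced by heat or other stress. HSPA5 works in the endoplasmic reticulum and HSPD1 in mitochondria.

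RNA from longissimus dorsi muscle biopsies of cattle was hybridised to 48 arrays of 2 colours, which gives 96 channels, each with the RNA of 1 animal. One experiment set Piedmontese against Wagyu animals, which the study's methods give as crosses of each breed with Hereford, on the same arrays at 60, 135 and 195 days of gestation, at birth (labelled 280 days), and at 3, 7, 12, 20, 25 and 30 months of age. In the other, Belmont Red cattle on a weight loss diet were set against Belmont Red cattle on a diet for weight growth at diet times 0, 1 and 2. The labels give these times no unit and do not say whether time 0 came before the diets began. The study's methods describe adult cattle in an experiment of nutritional deprivation and re-alimentation, without saying which time fell in which phase. Weight loss and growth therefore name the labelled groups at every time, whatever the feeding then was. The biopsies are whole tissue, so that fewer cells of a type and less RNA per cell cannot be told apart.

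The number of animals was small at the earliest stages. At 60 days there was 1 animal of each cross, measured on 3 arrays. At 135 days there were 3 Piedmontese and 2 Wagyu animals, at 195 days 2 and 3, at birth 3 and 3, at 12 months 4 and 2, and at the other ages 4 and 4. The diets had 4 animals each at time 0, 3 on weight loss and 4 on growth at time 1, and 2 each at time 2. The arrays of a time are numbered from 1, and leaving out a replicate means leaving out the arrays of 1 number. The animals at 3 to 30 months and on the diets were sampled repeatedly, and p-values rest on animals as replicates. Exceptions are the alternatives with slide or replicate as a block, in which an animal on several arrays can count more than once.

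Values are log2 intensities after background correction and normalization, averaged over the channels of an animal at 1 time, and a difference of 1 is a doubling. A gene was called when its adjusted p was under 0.05 (limma, two-sided, Benjamini-Hochberg over all tested probes). Where groups are said not to overlap, the share of all probes without overlap was not counted, so nothing is read from such separation alone. Between 49.9% and 76.4% of probe spots were well above background in a channel. Each of the 9 tested probes of the rule was well above background in all 96 channels and none was saturated. The second HSPA1A probe, the one with HSPA1A as its gene name, was well above background in 18 of 96 channels and was not tested. All HSPA1A results thus rest on a probe matched by the symbol in its description. The probes of HSPA5, HSPB6, HSP90AB1, HSPD1 and HSPH1 were matched in that way too. All arrays of a diet time share a slide, and the birth and 3-month arrays lie on different slides, so that these times and slides cannot be told apart, whereas 60, 135 and 195 days and birth share each of 3 slides.

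The probes are 60 bases long and the measurements are those of the short stretch each one pairs with. A stretch of 30 bases is shown for each tested probe of the rule and for HSPCA, as part of the sequence that was measured. Capitals mark AATAAA, the polyadenylation signal, and the probes in which no capitals stand lack it.
HSPA1A: gtttcaagtgagtcaacactgccaccctgt
HSPA8: agaaccagactgcagagaaggaagaatttg
HSPH1: ttgtacagtgcgttgtcatgtggaggtgcg
HSPB1: ctgtttttctcaAATAAAgtttgaagccac
HSPB6: taggcccactcccccAATAAAtgtgctaga
CRYAB: taaacgcattttttaaaacaagaaaagttc
HSP90AB1: tacacagttctgctctcgtagatttaagta
HSPCA (HSP90AA1): aaggtaacttggagcaagttttgtgaatgg
HSPD1: ctttctgtggagagtaagaacaattgtgta
HSPA5: atttaacaattgggtcatgtgtatctggtg
The probes of HSPB1 and HSPB6 hold AATAAA, which 11.8% of all probes on the array do. The longest run of bases that any of these probes shares with another probe of the array lay between 12 and 15 bases. Near-identical genes whose transcripts are not on the array could also pair with a probe, which matters for HSPA1A and its close copies.

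The library labelled Piedmontese, animal 1 at 135 days, stood apart from the other 4 animals of that age. Its 7 skeletal muscle marker probes summed to 13.99 on the log2 scale against 17.75 to 18.44 in the others, its fast fibre markers to 14.45 against 18.64 to 19.04, and its adipocyte markers to 17.10 against 10.30 to 12.25. Its tissue label thus goes against its markers. HSPA1A in this animal was 18.52, the highest level of HSPA1A at any fetal stage, against 12.29, 13.50, 14.28 and 14.87 in the other 4 animals. CRYAB was 10.04 against 13.02 to 13.38, and HSPB6 was 9.96 against 11.19 to 11.56. The 135-day results are therefore given with and without it.

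The chaperones fell into different courses over development. CRYAB and HSPB6 climbed from low fetal levels to high adult ones, HSPA5 lay highest in the youngest fetuses, and HSPH1, HSPD1 and HSP90AB1 had their highest means at birth.

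**Figure D1:**
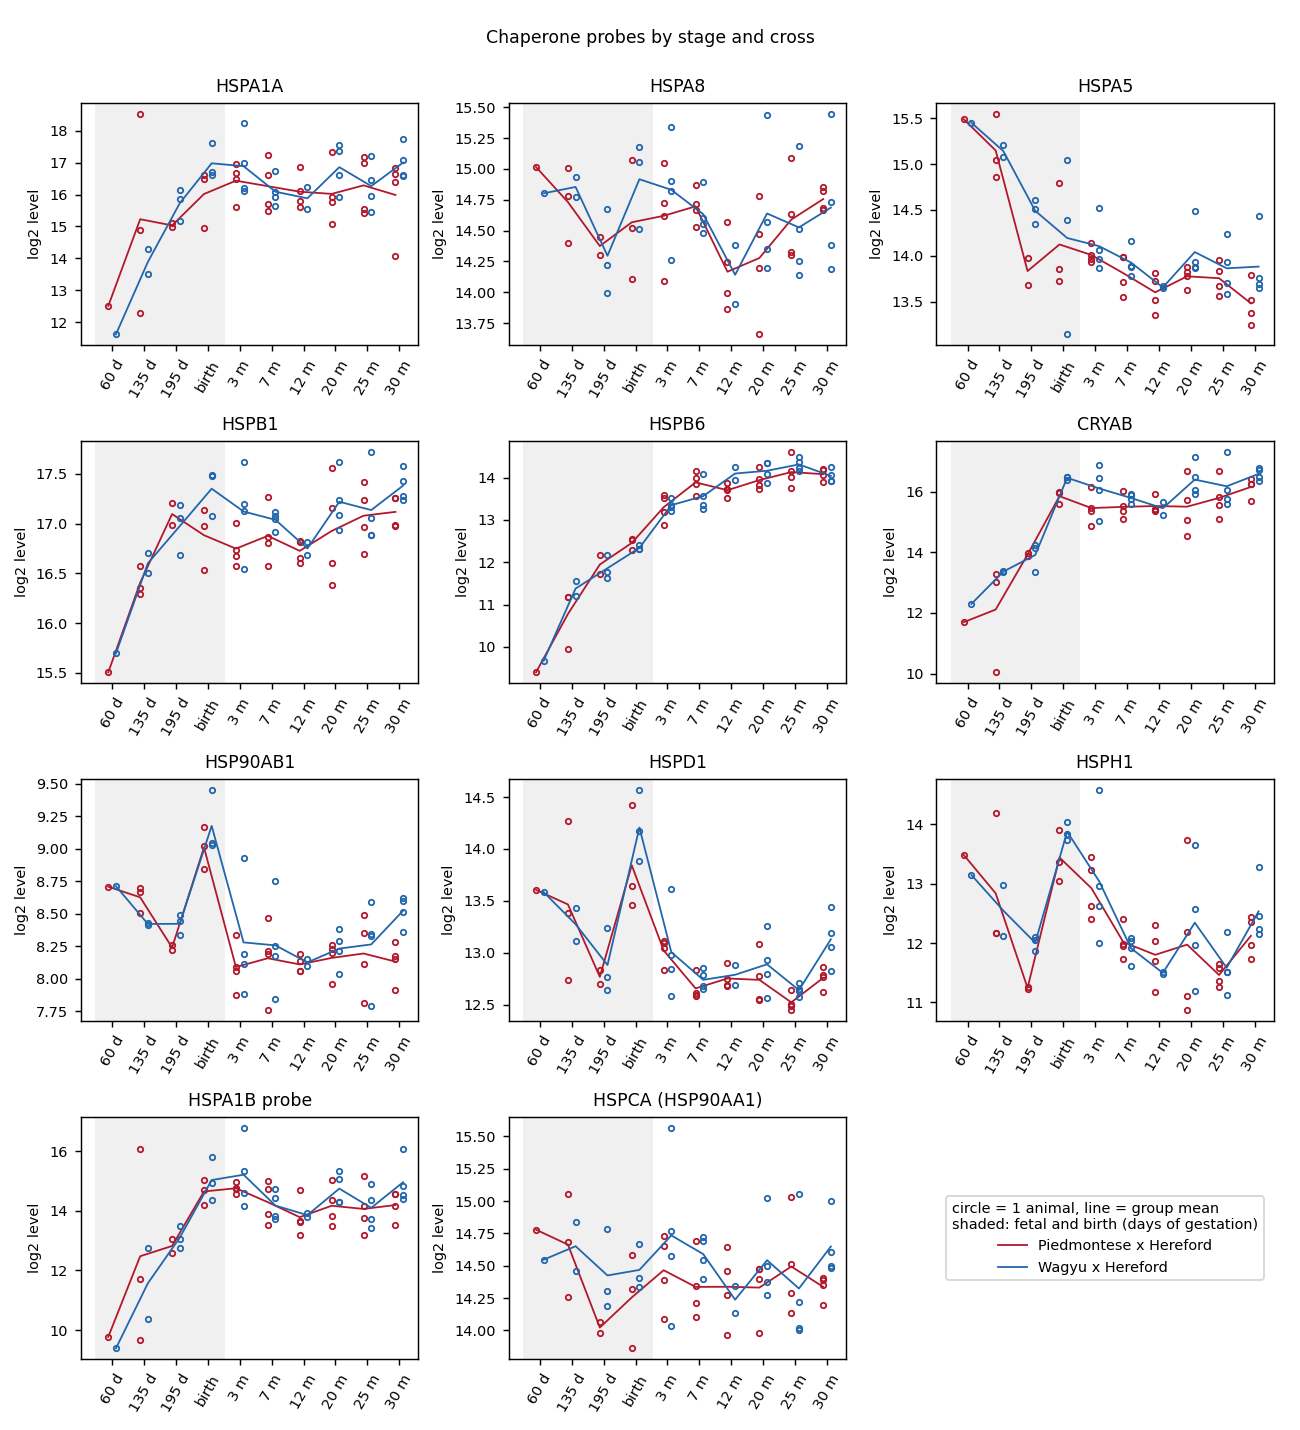
Log2 intensity of each probe (y axis) at each stage from 60 days of gestation to 30 months (x axis, stages evenly spaced, fetal stages and birth shaded). Circles are single animals, red for Piedmontese and blue for Wagyu, and lines join the mean of each cross. CRYAB stepped up between 195 days and birth, HSPH1, HSPD1 and HSP90AB1 had their highest means at birth, and of the 9 tested genes HSPA1A had the largest median SD between animals.

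In the 12 fetal animals against the 9 animals aged 3 to 30 months, 7 of the 9 tested genes were called, 4 higher and 3 lower after birth. Over all probes 74.5% were called in this comparison, 39% higher and 35.6% lower, so that the count is near the background. Each older animal entered with the mean over its ages and each fetus with its 1 time, so that the SDs of the groups are not alike. CRYAB averaged 13.06 (SD 1.21, n = 12) before birth and 15.87 (SD 0.312, n = 9) after, a 7.21-fold rise (log2 difference 2.85, SE 0.373, adjusted p = 7.21e-07). Within single ages from 3 to 30 months the SD of CRYAB was 0.245 to 0.850. HSPB6, a small heat shock protein of muscle that can be phosphorylated by cyclic nucleotide-dependent kinases, rose 6.85-fold (2.78, SE 0.309, adjusted p = 7.23e-08). For both genes every older animal lay above every fetus. The muscle marker list moved with them: 6 of its 7 probes were higher after birth (median 2.79), while 5 of 5 fibroblast and 4 of 4 blood probes were lower (medians -2.33 and -4.50). The part of tissue composition in these chaperone differences was not tested.

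HSPA1A rose by 1.71 on the log2 scale (SE 0.643, adjusted p = 0.0218) and HSPB1, which binds actin filaments, by 0.45 (adjusted p = 0.0286). HSPA5, the HSP70 of the endoplasmic reticulum, fell by 0.96 (SE 0.202, adjusted p = 0.000239), HSPD1, the mitochondrial chaperonin, fell by 0.41 (adjusted p = 0.0316) and HSP90AB1, the constitutive HSP90, fell by 0.27 (adjusted p = 0.00326). The groups overlapped for these 5 genes, and HSPA1A, HSPD1 and HSP90AB1 missed the threshold without replicate 1 (adjusted p = 0.0572, 0.231 and 0.0629). With array and dye medians HSPA5 (-0.33, adjusted p = 0.187) and HSPD1 (-0.07, 0.749) were not called, while HSPA8 was (0.62, 0.0136). HSPA8, the constitutive HSP70, differed by -0.02 and HSPH1, the HSP110 exchange factor of HSP70, by -0.27, with adjusted p of 0.898 and 0.418. The HSPA1B probe rose by 2.29 (adjusted p = 0.00353), while HSPCA differed by -0.01. Fetal and older animals lie on different slides, so that age and slide cannot be told apart here.

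Between 60 and 135 days, HSPB1 was the 1 gene called of the 9, against 2.5% of all probes. Its levels were 15.51 and 15.70 in the 2 animals at 60 days and 16.35, 16.58, 16.29, 16.50 and 16.70 in the 5 at 135 days, with no overlap. The difference was 0.90 (SE 0.124, adjusted p = 0.0265), and it lay between 0.90 and 0.93 within each of the 3 slides. HSPB1 lost its call (adjusted p = 0.142 and 0.0718) when replicate 1 or replicate 3 of the arrays was left out. HSPB6 was 9.40 and 9.67 at 60 days, and 11.19, 11.19, 11.20 and 11.56 in the 135-day animals other than the one that stood apart. Without that animal HSPB6 was higher by 1.75 (adjusted p = 0.00117) and CRYAB by 1.26 (adjusted p = 0.00353), and 3 genes were called. With slide as a block, the 4 genes called were HSPB1 (0.92), HSPB6 (1.57), HSPA1A (2.56, adjusted p = 0.0191) and HSPA5 (-0.34, adjusted p = 0.0297). That fit took 1 value per animal and slide without a term for animal. Each 60-day animal thus counted once for each of the 3 slides, and these p-values do not rest on animals.

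Between 135 and 195 days 2 of the 9 genes were called, against 16.9% of all probes. HSPA5 was 15.55, 15.05, 14.86, 15.21 and 15.07 at 135 days and 13.69, 13.98, 14.61, 14.51 and 14.35 at 195 days. Every 195-day animal lay below every 135-day one, and the fall was 1.98-fold (log2 difference -0.98, SE 0.173, adjusted p = 0.00663). Within the 3 slides the difference lay between -1.31 and -0.73. HSPA5 missed the threshold without replicate 1 (adjusted p = 0.0727). HSPB1 was higher by 0.53 (SE 0.125, adjusted p = 0.0212), with groups that overlapped. It missed the threshold without replicate 1 or 3 (adjusted p = 0.146 and 0.0819) and with the animal codes GP041A and GP041B taken as 1 animal (0.0666).

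Of the other genes of the endoplasmic reticulum list, 10 of 20 probes fell from 135 to 195 days and none rose (list median -0.34, all probes 0.00). HSP90B1, the reticular HSP90, fell by 1.03, SERPINH1, the collagen chaperone, by 0.89, PDIA3, a protein disulfide isomerase, by 0.69 and HYOU1, a reticular relative of HSP110, by 0.64. Over this step 3 of 4 dividing-cell probes (median -0.49) and 2 of 5 fibroblast probes (median -0.49) were lower and 2 of 3 endothelial probes higher, and their part was not tested. Without the animal that stood apart, 6 of the 9 member genes were called. HSPA1A was then higher by 1.67 (adjusted p = 0.0249), HSPB6 by 0.61 (0.0139) and CRYAB by 0.65 (0.0199), and HSPH1 was lower (-0.72, adjusted p = 0.0111). With slide as a block 5 were called, among them HSPA8 (-0.48), HSPB6 (0.76) and HSPH1 (-1.14). Here too an animal on several slides counted more than once.

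From 195 days to birth 6 of the 9 genes were called, a count near the background, since 64.1% of all probes were called. Of the 9 genes 6 were called higher and 0 lower, beside 34.1% and 30% of all probes. The median difference of the 9 genes was 0.76, beside 0.06 over all probes.

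CRYAB was 13.98, 13.88, 14.15, 14.24 and 13.37 at 195 days and 15.61 to 16.50 (median over the 6 newborns 16.20) at birth. No newborn overlapped the fetuses, and the rise was 4.84-fold (log2 difference 2.27, SE 0.175, adjusted p = 9.65e-07). HSPH1 was 11.22, 11.27, 12.04, 12.10 and 11.87 at 195 days and 13.05 to 14.05 at birth. Again the groups did not overlap, with a 4.05-fold rise (2.02, SE 0.143, adjusted p = 5.39e-07). HSPD1 was 12.70, 12.83, 13.24, 12.77 and 12.64 and then 13.46 to 14.57, a rise of 1.21 (SE 0.192, adjusted p = 0.000213). Its groups also stayed apart.

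HSP90AB1 was 8.26, 8.22, 8.49, 8.34 and 8.44 at 195 days and 8.84 to 9.45 at birth (0.76, SE 0.0954, adjusted p = 3.74e-05). HSPB6 rose by 0.49 (SE 0.116, adjusted p = 0.0033) without overlap. HSPA1A rose by 1.13 (SE 0.315, adjusted p = 0.00841), from 14.97, 15.09, 16.14, 15.87 and 15.18 to 14.95 to 17.61, and overlapped, since 1 newborn at 14.95 lay below every fetus. HSPA1A missed the threshold without replicate 2 (0.91, adjusted p = 0.0955). The HSPA1B probe rose by 1.89 (adjusted p = 6.26e-05). HSPA8 (0.43, adjusted p = 0.0787), HSPB1 (0.11), HSPA5 (-0.04) and HSPCA (0.13) were not called. HSPA8 was called with slide as a block (0.42, adjusted p = 0.0332), where an animal on several slides counted more than once. Within the 3 slides the difference lay between 2.17 and 2.33 for CRYAB, 1.78 and 2.26 for HSPH1, 1.07 and 1.41 for HSPD1, and 0.69 and 0.91 for HSP90AB1.

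Other chaperone groups moved over the same step. All 8 mitochondrial chaperone probes rose (median 0.73), with HSPA9, the mitochondrial HSP70, at 1.66, its J-domain partner DNAJA3 at 1.58, its exchange factor GRPEL1 at 1.16 and HSPE1, the co-chaperonin of HSPD1, at 0.84. Of the 9 probes for the cytosolic chaperonin, which folds actin and tubulin, 7 rose (median 0.70), with CCT5 at 1.45 and CCT6A at 1.43. Of 27 probes for HSP70 relatives and J-domain and BAG partners, 14 rose and 3 fell (median 0.65). DNAJB4 rose by 2.04 and BAG3, which joins HSP70 to the small heat shock proteins, by 1.84. With 64.1% of all probes called, the count called in this list is near the background.

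Of 11 HSP90 co-chaperone probes 7 rose and 1 fell (median 0.54), led by FKBP5, a glucocorticoid-induced immunophilin, at 5.87, and this count too is near the background. Among the 4 other small heat shock proteins, HSPB7 (1.67), HSPB3 (1.24) and HSPB8 (0.74) rose and HSPB2 (-1.55) fell. The endoplasmic reticulum list split, with 9 up and 6 down of 20. There DNAJC3 rose by 2.16 and ATF4, a stress-response transcription factor, by 1.51, while SERPINH1 was lower (-2.05). Of the 4 probes for heat shock factors and their binding protein, 3 rose, HSF2 by 1.12, HSF4 by 0.66 and HSF1 by 0.16, and HSBP1 was lower (-0.49). Fibroblast probes (5 of 5, median -2.32) and blood probes (4 of 4, median -4.76) were lower at birth, 6 of 7 muscle marker probes were higher and 1 lower (median 1.27), and 5 of 8 immediate early probes were higher and 1 lower (median 1.02). Their part in the chaperone differences was not tested.

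**Figure D2:**
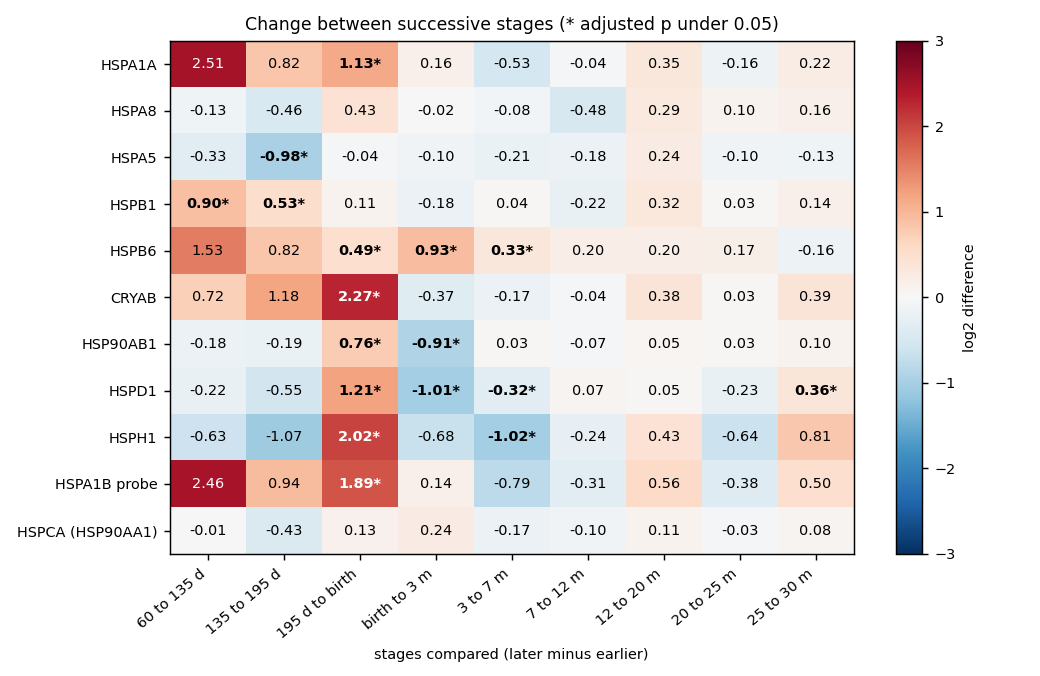
Log2 difference of each probe (rows) between successive stages (columns, later minus earlier), coloured from blue (lower) to red (higher) on the scale shown; an asterisk marks an adjusted p under 0.05. The column from 195 days to birth holds the most asterisks, 6 of the 9 genes of the rule and the HSPA1B probe. Of these steps it also had the largest share of all probes called, 64.1%.

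From birth to 3 months 3 of the 9 genes were called, against 44.9% of all probes. HSPB6 kept climbing, from 12.28 to 12.54 at birth to 12.89 to 13.59 at 3 months, without overlap (0.93, SE 0.106, adjusted p = 1.72e-05). HSPD1 fell by 1.01 (SE 0.182, adjusted p = 0.000599) and HSP90AB1 fell by 0.91 (SE 0.143, adjusted p = 0.000217), each with a narrow overlap. HSPH1 lay lower by 0.68 but was not called (adjusted p = 0.0999; 0.0144 without replicate 3). All 9 chaperonin probes fell (median -0.84; CCT5 -1.32, CCT3 -1.29), as did 5 of 8 mitochondrial chaperone probes, with TRAP1, the mitochondrial HSP90, at -0.99, while 1 of the 8 rose. Fibroblast (4 of 5 probes, median 0.79), leukocyte (4 of 4, 0.84) and adipocyte markers (3 of 4, 0.76) were higher at 3 months, and their part in these results was not tested.

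Across the 6 ages from 3 to 30 months, 4 of the 9 genes varied (limma F test), beside 69.3% of all probes: HSPB6 (range of age effects 0.90, adjusted p = 8.64e-08), HSPD1 (0.43, 0.00116), HSPH1 (1.46, 0.00186) and HSPA5 (0.39, 0.00823). HSPA5 was no longer called without replicate 2 or replicate 4 (adjusted p = 0.15 and 0.207), and 7 genes were called without replicate 3, HSPA8, HSPB1 and CRYAB added. HSPA8 was also called over the ages from 3 to 20 months alone (0.58, adjusted p = 0.0382), and over all 6 ages without replicate 1 (0.62, adjusted p = 0.0316). The arrays of 25 and 30 months lie on other slides than those of 3 to 20 months, so that age and slide cannot be told apart between these 2 sets of ages. HSPB6 had means of 13.32 at 3, 13.72 at 7, 13.83 at 12, 14.05 at 20, 14.22 at 25 and 14.06 at 30 months. HSPH1 had means of 12.99, 11.97, 11.70, 12.16, 11.52 and 12.33 at the same ages. HSPH1 thus had its highest mean at 3 months, and its spread was widest at 20 months, where the 8 animals ran from 10.87 to 13.74 (SD 1.11).

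Of the steps between neighbouring ages, that from 3 to 7 months had 3 calls among the 9 genes, beside 18.1% of all probes. HSPH1 was lower at 7 months in 6 of the 7 animals measured at both ages (-1.02, SE 0.319, adjusted p = 0.0233), and HSPD1 likewise (-0.32, adjusted p = 0.0179). HSPB6 was higher in 7 of 7 (0.33, adjusted p = 0.0315). Within the 4 slides HSPH1 was lower in each, between -1.55 and -0.38, and HSPB6 higher in each, between 0.22 and 0.60. With only the ages from 3 to 20 months fitted, HSPH1 and HSPB6 missed the threshold (adjusted p = 0.0603 and 0.0711). HSPB6 also missed it without any 1 of the 4 replicates (adjusted p 0.0604 to 0.146), HSPD1 without replicate 2, 3 or 4 (0.0505 to 0.129) and HSPH1 without replicate 2 or 3 (0.189 and 0.0895).

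None of the 9 genes was called from 7 to 12, 12 to 20 or 20 to 25 months (14.6%, 16.3% and 15.5% of all probes), where 1, 2 and 2 of them had an unadjusted p under 0.05. With only the ages from 3 to 20 months fitted, HSPA5 was called from 12 to 20 months (0.28, adjusted p = 0.0397), as it was without replicate 1 (0.32, adjusted p = 0.0283). HSPA8 was called from 7 to 12 months without replicate 3 (-0.57, adjusted p = 0.0398). From 25 to 30 months HSPD1 was higher in 8 of 8 animals (0.36, SE 0.0919, adjusted p = 0.00349), beside 24.5% of all probes. HSPH1 was also higher in 8 of 8 (0.81, adjusted p = 0.0505) but was not called. Under 5 alternatives it was, with an adjusted p of 0.00155 with array and dye medians and of 0.0381 to 0.04998 in the other 4.

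Mean levels of HSPA1A from 3 to 30 months lay between 16.02 and 16.66, with an SD between animals of 0.491 to 1.06 at each age, and no step was called. HSPA1A was the most variable of the 9 genes, with a median SD within groups of 0.57 on the log2 scale, against 0.436 for HSPH1, 0.35 for CRYAB, 0.344 for HSPA8, 0.243 for HSPB1, 0.228 for HSPB6, 0.225 for HSPA5, 0.183 for HSP90AB1 and 0.167 for HSPD1. At 3 months Wagyu animal 2 had the highest HSPA1A (18.24), HSPH1 (14.58) and HSPA5 (14.52) of the 8 animals. The same animal, numbered 4 at 20 months, again had the highest HSPA1A (17.55) and HSPA5 (14.49), and there its HSPH1 was 13.65.

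The crosses were compared within fetuses, newborns and the older animals. None of the 9 genes was called in limma in any of the 3 comparisons, in which 0, 1 and 0 of all tested probes were (0, 0.00632 and 0%); an unadjusted p under 0.05 was reached by 0, 1 and 2 of the genes and by 375, 1010 and 758 of all probes. CRYAB had the smallest p of the 9 genes at birth and in the older animals. At birth it was 16.00, 15.97 and 15.61 in the Piedmontese and 16.40, 16.50 and 16.50 in the Wagyu newborns, a difference of -0.61 (SE 0.14, adjusted p = 0.757). From 3 to 30 months the difference was -0.44 after the mean of each age was subtracted (SE 0.104, adjusted p = 0.593), with unsubtracted animal means that averaged 15.64 (SD 0.186, n = 5) in Piedmontese and 16.15 (SD 0.141, n = 4) in Wagyu. The animals of the crosses did not overlap for CRYAB in either comparison, and neither difference passed the adjustment. In the fetuses the CRYAB difference was -0.62 (SE 0.518), with overlap, and it was -0.19 without the 135-day animal that stood apart.

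The diets were compared at each diet time, and within each diet between times. At time 0, 2 of the 9 genes were called, both lower on the weight loss diet, beside 0.999% of all probes and 0.499% called lower. HSPH1 was 11.17, 10.62, 10.36 and 10.89 on weight loss and 13.32, 12.62, 12.48 and 13.35 on growth. It was 4.53-fold lower on weight loss (log2 difference -2.18, SE 0.252, adjusted p = 0.0188), with 1.31 on the log2 scale between the nearest animals of the groups. HSPA8 was 13.69, 13.11, 14.03 and 13.37 on weight loss and 15.14, 14.85, 14.74 and 15.28 on growth. It was lower by 2.73-fold (-1.45, SE 0.211, adjusted p = 0.0355), again with no overlap. HSPH1 lost its call without replicate 2, 3 or 4 (adjusted p = 0.0892, 0.09 and 0.134), and HSPA8 without any 1 of the 4 replicates (0.0892 to 0.147). With the array as replicate block neither was called (0.134 for each).

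HSPA1A was 14.91, 14.28, 15.30 and 16.36 on weight loss and 17.98, 18.06, 16.64 and 17.59 on growth at time 0. These groups did not overlap, but the difference of -2.35 was not called (SE 0.466, adjusted p = 0.065). CRYAB (-1.54, adjusted p = 0.0725), HSPA5 (-0.95, 0.0572) and HSPD1 (-0.46, 0.112) did not overlap between the diets either and were not called, nor were HSPB1 (-0.96, 0.195), HSP90AB1 (-0.23) and HSPB6 (0.16). Of the 9 genes 8 had a difference below 0 and the median was -0.96, beside -0.01 over all probes. An unadjusted p under 0.05 (limma) was reached by 7 of the 9 genes and by 2470 of 15822 probes. The HSPA1B and HSPCA probes had differences of -1.69 and -0.73 (adjusted p = 0.107 and 0.0848).

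Among the other chaperone lists at time 0, DNAJA1, a J-domain partner of HSPA8, was lower on weight loss (-2.02, adjusted p = 0.0188), as were BAG3 (-1.32, 0.0355) and the chaperonin subunit CCT3 (-0.75, 0.0355). None of the probes for HSP90 co-chaperones, other small heat shock proteins, mitochondrial or endoplasmic reticulum chaperones or heat shock factors was called. Immediate early genes, which respond within minutes to handling and other stimuli, moved with these values. Their 8 probes summed to 14.49 to 15.11 in the weight loss animals and 15.78 to 18.25 in the growth animals, and 2 of 8 were called lower on weight loss, ATF3 (-5.15, adjusted p = 0.0355) and FOS (-4.01, 0.0476). None of the 7 muscle marker or 5 fibroblast probes was called. The part of the immediate early response in the chaperone differences was not tested.

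At time 1, 3 of the 9 genes were called, beside 13.6% of all probes. HSPA8 was 13.60, 13.76 and 13.28 on weight loss and 15.23, 14.70, 15.12 and 14.79 on growth. The difference, -1.41 (SE 0.175, adjusted p = 0.00607), was near that at time 0, and HSPA8 stayed called without any 1 of the 4 replicates. HSP90AB1 was 8.37, 8.66 and 8.16 on weight loss and 7.48, 7.89, 7.60 and 7.73 on growth. It was the 1 gene higher on weight loss (0.72, SE 0.152, adjusted p = 0.0239), without overlap, and missed the threshold without any 1 of the replicates (0.0558 to 0.0981).

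HSPA1A at time 1 was 16.28, 15.37 and 16.31 on weight loss and 16.64, 17.08, 17.17 and 16.80 on growth. The groups did not overlap, and the difference of -0.94 (SE 0.254) had an adjusted p of 0.0496. It missed the threshold in 9 of the alternatives, the 4 that leave out a replicate among them, with adjusted p from 0.0509 to 0.145. HSPH1 was 10.81, 10.72 and 10.59 on weight loss and 11.03, 11.19, 12.24 and 11.65 on growth (-0.82, adjusted p = 0.0872, or 0.0494 with the replicate block). That block takes pairs of animals as units, and a weight loss animal on several arrays entered it more than once. Of the lists at time 1, DNAJA4 (-2.50), SERPINH1 (-2.18) and ATF4 (-1.60) were lower on weight loss, and P4HB, a disulfide isomerase (1.38), UNC45B, the myosin chaperone (1.01), FKBP5 (0.92) and the chaperonin subunit TCP1 (0.60) were higher. Fibroblast markers (4 of 5 probes, median -1.68), fast fibre markers (3 of 5, median -1.65) and muscle markers (3 lower, 1 higher of 7) also differed at time 1, and their part in these results was not tested.

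**Figure D3:**
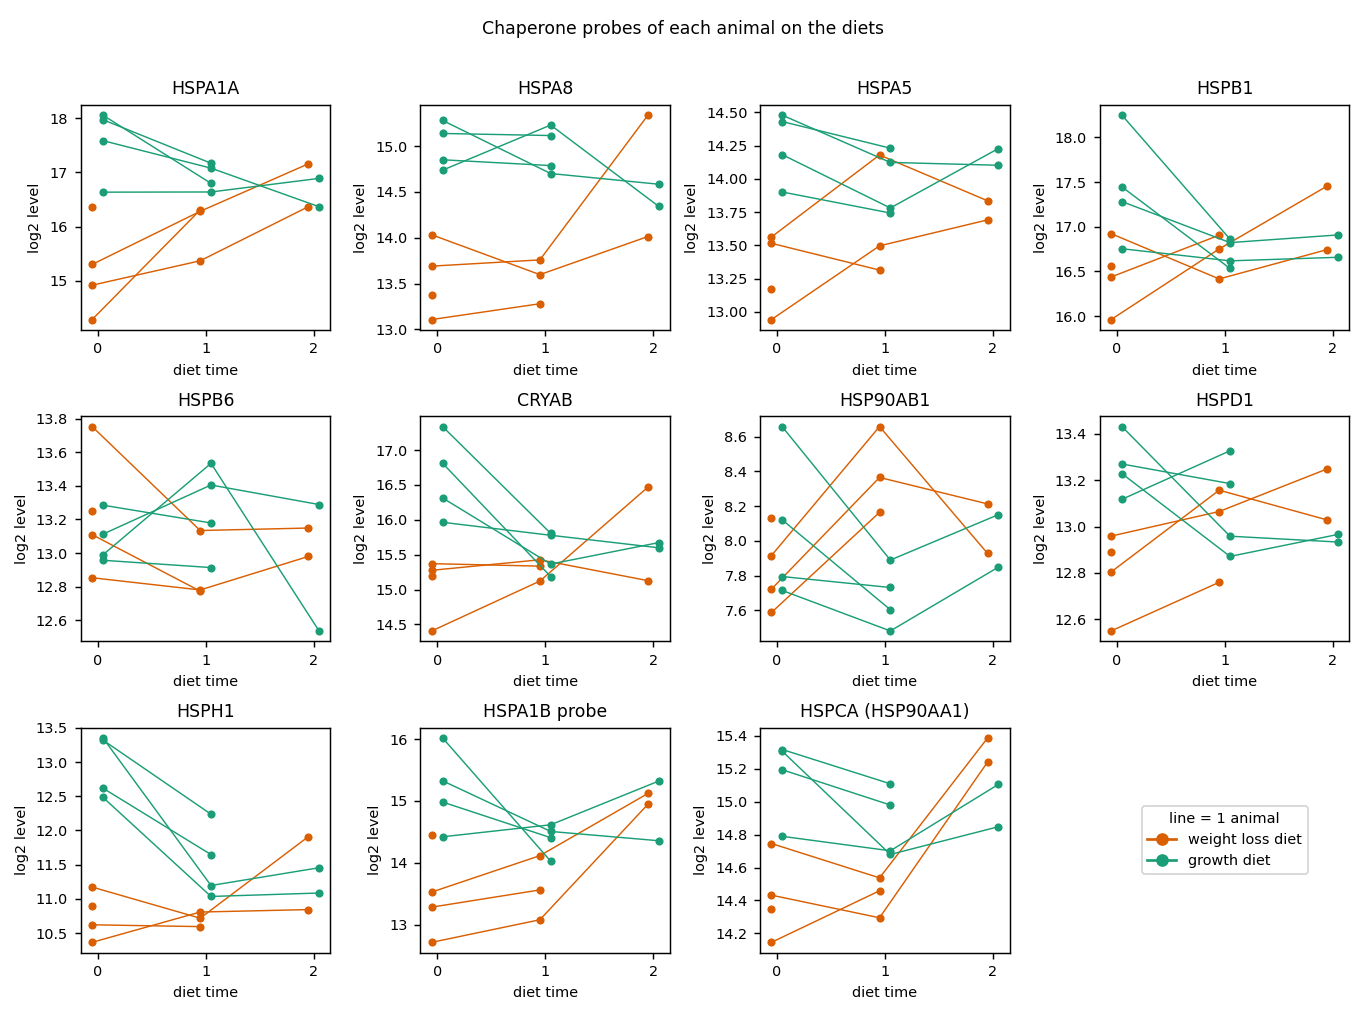
Log2 intensity of each probe (y axis) at diet times 0, 1 and 2 (x axis, no unit given in the labels). Each line joins the values of 1 animal, orange for the weight loss diet and green for the growth diet. HSPH1 lay between 10.36 and 11.17 on weight loss and between 12.48 and 13.35 on growth at time 0, while at time 2 the diets overlapped for HSPH1, HSPA8 and HSPA1A.

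At time 2, with 2 animals per diet, none of 15822 probes passed the limma threshold (0%), and 1 of the 9 genes had an unadjusted p under 0.05, as did 885 probes. HSPA8 was then 15.34 and 14.01 on weight loss and 14.34 and 14.58 on growth (0.21, SE 0.445). HSPH1 was 11.91 and 10.84 on weight loss and 11.08 and 11.45 on growth (0.11, SE 0.378). The diets overlapped for both genes.

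The change from time 0 to time 1 was tested for a difference between the diets, and 3 of the 9 genes passed, beside 11.8% of all probes. HSPA1A changed by 1.15 on weight loss (higher in 3 of 3 animals, adjusted p = 0.046) and by -0.64 on growth (adjusted p = 0.236), a difference of 1.80 (SE 0.438, adjusted p = 0.0285). HSP90AB1 rose on weight loss by 0.65 (higher in 3 of 3 animals, adjusted p = 0.0259), with -0.40 on growth (adjusted p = 0.138), a difference of 1.05 (SE 0.209, adjusted p = 0.0145). HSPH1 was -0.01 on weight loss, while on growth it fell by 1.41 (lower in 4 of 4 animals, adjusted p = 0.0162), a difference of 1.40 (SE 0.321, adjusted p = 0.0232). Within a diet, 13.7% of all probes on weight loss and 2.76% on growth changed.

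None of the 3 differences was called without replicate 1, 2 or 4, and that of HSPA1A also missed the threshold without replicate 3 (adjusted p = 0.058). Within weight loss, HSPA1A and HSP90AB1 missed it without replicate 1, 2 or 4, and within growth HSPH1 did so without replicate 1 or 4. Of the immediate early probes 6 of 8 fell on growth (median -1.63) and none changed on weight loss. BAG3 (1.35), HSPB8 (2.15), HSF2 (1.16) and CCT3 (1.05) also differed in their change between the diets, as did ATF4 (-2.04) and DNAJA4 (-1.42) in the opposite direction. Both diets at a time share 1 slide, so that a change within a diet and the slide cannot be told apart. From time 1 to time 2 none of the 9 genes was called within either diet or between them (2.19, 0 and 0.664% of all probes). The HSPCA probe rose on weight loss by 0.82 (2 of 2 animals, adjusted p = 0.0464).

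Over the 26 conditions, each a cross or diet at 1 time, the genes formed groups of like course. The means of HSPA1A and of the HSPA1B probe correlated at r = 0.976, HSPB6 and CRYAB at 0.884, HSPA1A and CRYAB at 0.871, HSPA1A and HSPB1 at 0.868, HSPD1 and HSP90AB1 at 0.768 and HSPD1 and HSPH1 at 0.755. HSPA5 ran opposite to HSPB6 (-0.878). The inducible and the constitutive HSP70, HSPA1A and HSPA8, had r = -0.03 over all 26 conditions, but -0.40 over the 8 up to birth, 0.589 over the 12 after birth and 0.923 over the 6 of the diets. HSPB6 also changed its place: with HSPA1A it had r = 0.899 up to birth, -0.15 after birth and -0.09 in the diets, and with CRYAB 0.88, 0.356 and -0.11. The conditions share animals, arrays and slides and the step at birth, so that these values are descriptions without a test.

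**Figure D4:**
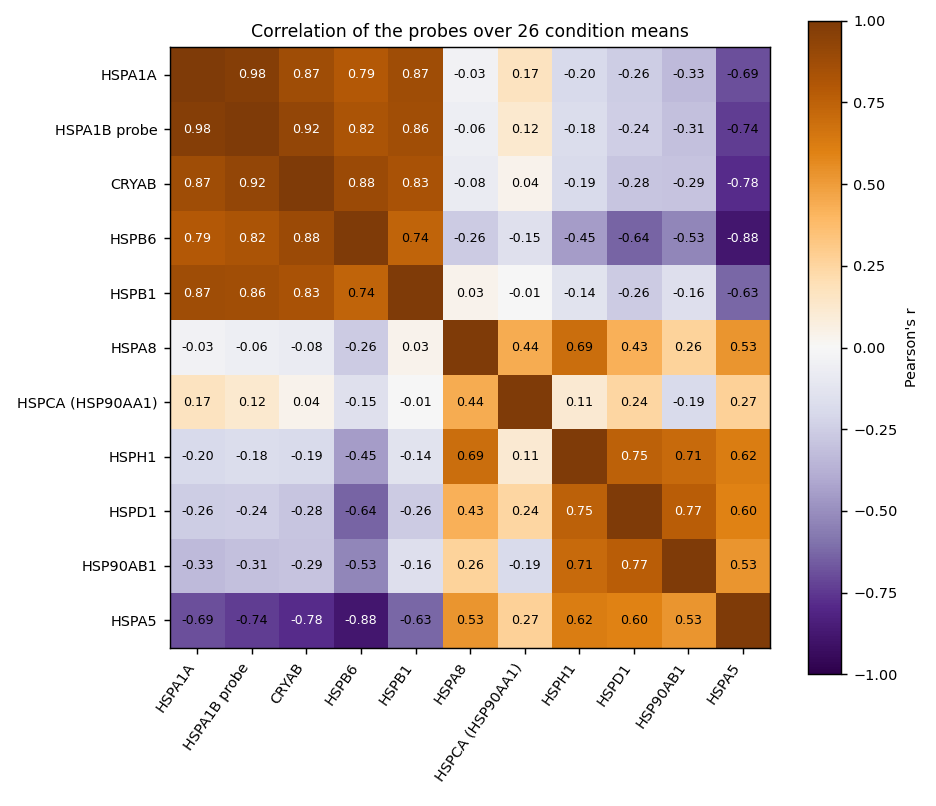
Pearson's r between each pair of probes over the means of 26 conditions, written in each cell and coloured from purple (-1) to brown (1). HSPA1A, the HSPA1B probe, CRYAB, HSPB6 and HSPB1 form a block of r from 0.741 to 0.976 over the pooled conditions, which HSPB6 left within the ages after birth and within the diets.

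Ranked by r over the same 26 conditions, the tested probe most like HSPA5 was HSP90B1 (0.947), that most like HSPH1 and that most like HSPA8 were both DNAJA1 (0.919 and 0.758), and that most like HSPB1 was HSPB8 (0.881). For HSPA1A it was BAG3 (0.94) after the HSPA1B probe. For CRYAB it was TRIM54, a muscle RING-finger protein (0.982), for HSPB6 ALKBH7 (0.98), for HSP90AB1 SCAP, which escorts the sterol-regulated SREBP factors (0.911), and for HSPD1 NKRF (0.937), followed by the chaperonin subunit CCT2 (0.926).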

How the data were processed

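The authors hybridised 2 RNAs to each array, 1 in Cy3 and 1 in Cy5, with dyes swapped between arrays, and deposited what Agilent Feature Extraction 9.5.1 (per the labels) wrote for each array: for each spot and channel an intensity, a local background and flags. The deposited log10 ratios and the study's own mixed-model values were not used here, and probes were not placed on a genome. From the mean intensities, background was corrected by normexp (offset 50), arrays were normalized by loess within and Aquantile between arrays, control and outlier-flagged spots (2 to 797 per array) were left out, and log2 values of a probe were averaged (limma 3.58.1, R 4.3.3). Probes well above background in at least 24 of 96 channels were tested. The dye effect of each probe was removed, and channels of an animal at 1 time were averaged. Comparisons used lmFit and eBayes, two-sided, with Benjamini-Hochberg adjustment over 15822 probes and a threshold of 0.05. Cross entered the stage comparisons and time point the comparison of fetal crosses, while for the older crosses the mean of each age was subtracted first. Repeated animals were blocked in the age and within-diet fits. The scripts were tested on simulated data.

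The precision is limited by the number of animals and arrays (3 or 4 per time). Every probe of the 10 genes is named; of each other chaperone list, up to 4 genes with the largest changes past the threshold per comparison could be named, and marker lists are given by counts, medians and ranges. The genes and lists were chosen with earlier results of these data known. The ranking of most similar probes was added after values were seen, as was the alternative without the 135-day animal that stood apart. Same-numbered samples share an array: in newborns the deviations of the crosses correlated in every pair (0.165 to 0.406), whereas in the diets they ran from -0.201 to 0.29. The 16 alternatives included processed signals, other normalizations and filters, slide and replicate blocks and leaving out replicates.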

Additional observations from a re-analysis of the deposited data

Results flagged for a closer look

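Of 132 combinations of a probe and a group of animals, 9 held an animal far from the others of its group; chance alone would give about 1 in 20. At 30 months HSPA1A was 14.08 in Piedmontese animal 2, against 16.38 to 17.76 in the other 7. HSPA5 was high in Wagyu animal 2 at 3 months (14.52 against 13.87 to 14.14), in Wagyu animal 4 at 20 months, which is the same animal (14.49 against 13.63 to 13.93), and in Wagyu animal 4 at 30 months (14.43 against 13.24 to 13.79). HSPH1 was also high in the last of these, at 13.28 against 11.73 to 12.45. In Wagyu animal 2 at 3 months HSP90AB1 was 8.93 (7.87 to 8.34 in the others) and the HSPA1B probe 16.78 (14.15 to 15.34). At 135 days HSPB6 (9.96) and CRYAB (10.04) were low in Piedmontese animal 1, whose muscle markers were low too.

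The change from diet time 0 to time 1 differed between the diets, by the limma test of the difference itself, for HSPA1A (1.80), HSP90AB1 (1.05) and HSPH1 (1.40), each as weight loss minus growth on the log2 scale.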

How the results depend on the processing

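For the fetal against the older animals the count of the 9 genes called was 7, and 4 to 7 with a replicate left out. From 60 to 135 days it was 1, and 0 with processed signals, with array and dye medians or with the dye effect kept, 4 with slide as a block, 3 without the animal that stood apart and 0 to 3 with a replicate left out. From 135 to 195 days it was 2, and 0 with array and dye medians, 5 with the slide block, 1 with GP041A and GP041B as 1 animal, 6 without the animal that stood apart and 0 to 4 with a replicate left out. Over the 6 ages it was 4, and 3 to 7 with a replicate left out. At diet time 0 it was 2, and 1 with array and dye medians, 5 when a probe had to be well above background in every channel, 0 with the replicate block and 0 to 1 with a replicate left out; at time 1 it was 3, and 1 with any replicate left out and 4 with the replicate block. For the change from time 0 to 1 it was 3, and 6 with array and dye medians and 0 to 2 with a replicate left out. The counts from 195 days to birth, from birth to 3 months, between the crosses, at diet time 2 and from time 1 to 2 stayed within 1.5 times. From 3 to 7 months it was 3, and 0 with array and dye medians, 1 with only 3 to 20 months fitted and 0 to 3 with a replicate left out. From 7 to 12 months it was 0, and 1 without replicate 3. From 12 to 20 months it was 0, and 1 without replicate 1 or with only 3 to 20 months fitted. From 25 to 30 months it was 1, and 9 with array and dye medians, 2 with 4 other alternatives and 2 without replicate 3. Within growth it was 1 from time 0 to 1, and 4 with array and dye medians and 0 without replicate 1 or 4. Within weight loss it was 2, and 1 with array and dye medians, all probes kept or the mean of probes, and 0 without replicate 1, 2 or 4.

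With array and dye medians, under which the median of all probes from 25 to 30 months was 0.49 beside 0.01, 4 values turned: HSPA8 after birth (0.62), HSPD1 from 3 to 7 months (0.0024), and HSPA5 (0.98) and HSPB6 (0.94) from 25 to 30 months; the cause was not tested. Of 2520 values of single probes, 2385 kept their direction and their side of the threshold, 79 lost and 52 gained a call. All 9 tested probes were well above background in every channel, but HSP90AB1 was the dimmest, with group means from 7.96 to 9.09. The second HSPA1A probe, limited by its signal over background, had group means from 6.70 to 7.13, beside 12.06 to 16.70 for the tested one. How far low signal narrows the differences and SD of HSP90AB1 was not tested.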
